A study of Mus musculus with 8 samples.

Results

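The transcripts described here are 34 genes whose known sites of expression are the epididymis, the seminal vesicle, developing sperm and the testosterone-producing Leydig cells of the testis. They were looked up by symbol on arrays of epididymal white adipose tissue (eWAT), the fat pad that lies against the epididymis and testis. Of the 34 genes, 30 had a probe set of their own among the 22180 genes measured, namely 15 of the epididymis, 3 of the seminal vesicle, 9 of sperm and 3 of Leydig cells. Crisp1 and Cst8 were not listed for any probe set, and Prm2 and Insl3 were listed only on probe sets shared with another gene (Wdr19 and Jak3).

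The arrays came from 5 male Abhd15 knockout (KO) mice and 3 male wild type (WT) mice, all on a C57BL/6J background, aged 14 weeks, kept on chow, left without food overnight and refed for 1 h. Abhd15 encodes a protein of fat cells, and the contrast asks what its loss changes in fat after feeding. Each array held RNA of 1 mouse. The sources used here do not say how the knockout allele was made or whether mice shared a litter.

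The epididymis receives sperm from the testis and matures them in a tube whose lining secretes different proteins along its length, from the initial segment and caput to the corpus and cauda. Lipocalins, cystatins, protease inhibitors and beta-defensins are typical products of this lining, and most of them depend on androgen. Seminal vesicles secrete the proteins that clot in the copulatory plug. Protamines and transition proteins replace histones in the nuclei of spermatids, the haploid cells that become sperm, and Leydig cells turn cholesterol into testosterone. None of these genes is known as a marker of adipocytes.

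By their mean over the arrays, 23 of the 30 members lay below the median of the gene means, and 7 lay at or above it. On 3 arrays groups of members stood out. A gene is called raised on an array when its log2 signal there was at least 1 unit (2-fold) above its median over the 8 arrays. On KO 4, 11 of the 30 members were raised, against 1.88% of all genes. On WT 1, 11 were raised, against 1.19% of all genes, and on WT 2, 9 were raised, against 0.654% of all genes. On KO 3 and KO 5 a single member was raised (background 0.866% and 0.622% of genes). No member was raised on KO 1, KO 2 or WT 3, where 0.514%, 0.491% and 0.280% of genes were. The raised members were 7 epididymal genes, 3 sperm genes and the Leydig gene Cyp17a1 on KO 4, 3 seminal vesicle and 8 sperm genes on WT 1, and 6 sperm genes, 2 Leydig genes and Svs5 on WT 2. The sperm genes Tnp2, Smcp and Gapdhs were raised on all 3 arrays. Of the 30 members, 9 had their highest value on KO 4 (12.2% of all genes did), 12 on WT 1 (14.9% of all genes) and 1 on WT 2 (9.79% of all genes). With 1 array in each case there is no test of these counts. Signals from more cells of a type and from more RNA per cell cannot be told apart in whole tissue, and whether tissue beside the fat pad was taken with it was not tested.

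**Figure D1:**
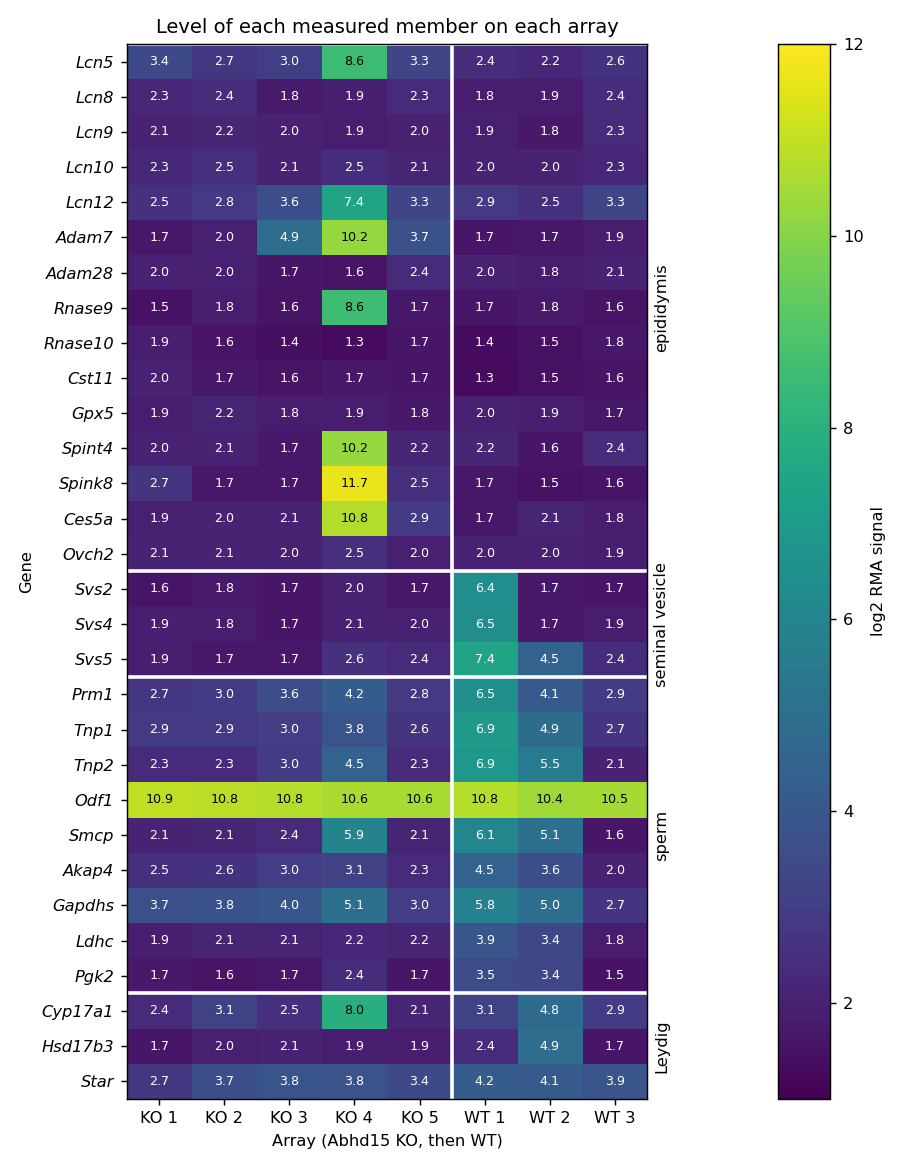
Log2 RMA signal of the 30 measured members (rows, grouped by tissue) on each array (columns, KO then WT), with the value printed in each cell. On KO 4, 7 of the 15 epididymal genes reach 7.44 to 11.69, the seminal vesicle genes 6.38 to 7.42 on WT 1, and Odf1 is high on every array.

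The arrays otherwise resembled each other, with medians of 2.93 to 3.12 over all probe sets and pairwise correlations of 0.962 to 0.978. The mean log2 signal of 8 adipocyte genes, among them Adipoq, Plin1 and Fabp4, lay between 10.36 and 10.93 on the KO arrays and between 10.62 and 10.86 on the WT arrays. Abhd15 at its brighter probe set read 5.77, 6.07, 6.27, 5.60 and 5.75 in KO 1 to KO 5, and 6.36, 6.45 and 6.14 in WT 1 to WT 3. The array labelled KO 3 thus lay within the WT values, and the place of the probes against the deletion is unknown here, so they check no label.

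The region before the start of transcription is shown for 5 members that were raised, to set side by side genes of the 3 tissues. Each line gives the 120 bases just upstream of the start from RefSeq (build GRCm38.p6), in the direction of the gene, with every TATAA, on either strand, in capitals. The regions are chr2:164278308-164278427 for Svs4 (minus strand), chr2:164332645-164332764 for Svs5 (plus), chr2:164698381-164698500 for Spint4 (plus), chr16:10788656-10788775 for Tnp2 (minus) and chr16:10796824-10796943 for Prm1 (minus).
Svs4: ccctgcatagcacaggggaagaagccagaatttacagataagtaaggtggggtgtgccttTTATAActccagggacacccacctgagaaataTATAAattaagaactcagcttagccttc
Svs5: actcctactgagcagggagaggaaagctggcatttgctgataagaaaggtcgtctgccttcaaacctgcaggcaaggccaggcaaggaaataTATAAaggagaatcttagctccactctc
Spint4: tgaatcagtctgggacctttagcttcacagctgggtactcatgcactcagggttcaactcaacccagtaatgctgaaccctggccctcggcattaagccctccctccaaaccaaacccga
Tnp2: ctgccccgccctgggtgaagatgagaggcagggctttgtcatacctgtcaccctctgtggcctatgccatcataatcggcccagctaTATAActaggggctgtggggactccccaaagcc
Prm1: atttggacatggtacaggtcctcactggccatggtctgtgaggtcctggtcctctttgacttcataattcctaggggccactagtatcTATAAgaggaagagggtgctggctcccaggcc

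TATAA, the core of the TATA box, is present close to the start in Svs4, Svs5, Tnp2 and Prm1 and absent from this stretch in Spint4. Among raised members not printed, Ces5a, Lcn5 and Ldhc had it, and Svs2, Tnp1, Smcp and Hsd17b3 were among those without it. It thus did not divide the genes by tissue. Among raised members with a listed promoter, 7 of 17 genes had it in these 120 bases (7 of 20 listed promoters), and 11.8% of all 32851 promoters did. This motif was chosen after the sequences had been seen. The full cyclic AMP response element TGACGTCA was sought on both strands in the 250 bases before the start, because germ cell genes are known to use such elements. It was in none of 31 promoter windows of 27 members and in 1.55% of all promoters. The shorter TGACG was found before 2 members, Ces5a and Ldhc, and in 17.8% of all promoters. The full palindromic androgen response element was in none of the members' windows and in 0.00913% of all promoters. Its letters are too strict for many known elements, and the letters alone say nothing of whether a factor binds.

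Of the 15 epididymal members, 7 were raised on KO 4 and all 7 had their highest value there. Spink8, a Kazal-type protease inhibitor, read 2.67, 1.73, 1.70, 11.69 and 2.54 in KO 1 to KO 5, and 1.70, 1.53 and 1.64 in WT 1 to WT 3. Its signal on KO 4 lay at the 99.8th percentile of all genes on that array. The remaining KO arrays and the WT arrays were all near background. Ces5a, a secreted carboxylesterase of the epididymis, read 1.95, 2.04, 2.07, 10.75 and 2.94 in KO 1 to KO 5, and 1.73, 2.12 and 1.84 in WT 1 to WT 3. Spint4, a Kunitz-type protease inhibitor, read 2.00, 2.11, 1.70, 10.25 and 2.19 in KO 1 to KO 5, and 2.19, 1.65 and 2.41 in WT 1 to WT 3. Both thus had 1 high KO array and no high WT array.

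Rnase9, a member of the ribonuclease A family, read 1.52, 1.84, 1.58, 8.60 and 1.73 in KO 1 to KO 5, and 1.67, 1.81 and 1.56 in WT 1 to WT 3. Lcn5, the epididymal retinoic acid-binding lipocalin, read 3.44, 2.73, 3.03, 8.56 and 3.30 in KO 1 to KO 5, and 2.40, 2.22 and 2.63 in WT 1 to WT 3. Lcn12, a related retinoid-binding lipocalin, read 2.55, 2.83, 3.63, 7.44 and 3.31 in KO 1 to KO 5, and 2.89, 2.49 and 3.32 in WT 1 to WT 3. For Lcn5 all KO arrays lay above all WT arrays, KO 2 (2.73) only slightly above WT 3 (2.63), while for Rnase9 and Lcn12 the groups overlapped apart from KO 4.

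Adam7, a membrane protein of the epididymal lining that is passed to sperm, was the member raised on most KO arrays. It read 1.69, 1.96, 4.93, 10.24 and 3.73 in KO 1 to KO 5, and 1.67, 1.72 and 1.90 in WT 1 to WT 3. KO 4 was highest, KO 3 and KO 5 were intermediate, and KO 1 and KO 2 lay close to the WT arrays. No other member was raised on KO 3 or KO 5.

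The other 8 epididymal members stayed between 1.31 and 2.49 on every array, KO 4 included, and none varied by more than 0.80 across the 8 arrays. They were Lcn8, Lcn9, Lcn10, Adam28, Rnase10, Cst11, Gpx5 and Ovch2. Rnase10 and Lcn8 are known from the initial segment of the mouse epididymis, the part nearest the testis, and Gpx5, a secreted glutathione peroxidase, from the caput. Rnase10 read 1.31 on KO 4, its lowest value on any array, and its chromosome 14 relative Rnase9 read 8.60 there. Adam7 and Adam28, 2 metalloproteinase-family genes of chromosome 14, likewise read 10.24 and 1.56 on KO 4. Lcn5 and Lcn12 read 8.56 and 7.44 there, and Lcn8, Lcn9 and Lcn10, all 5 of them on chromosome 2, read 1.92, 1.85 and 2.45. On KO 4, signal above background was thus seen for a subset of the epididymal genes measured. The other 8 were near background on every array, so whether their probe sets can respond is not known here. Segments were named for some unraised members only, and raised and unraised members were not compared by segment.

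Other epididymal genes, listed apart from the members, followed KO 4 as well. Of 36 measured, 22 were raised on KO 4, 3 on WT 2 (Cst12, Eppin and Wfdc10) and none on the remaining 6 arrays. The beta-defensin Defb23 read 11.64 on KO 4 and at most 2.72 elsewhere. The whey acidic protein family gene Wfdc13 read 11.15 on KO 4 and at most 3.47 elsewhere, and the inhibitor Spint5 read 9.04 against at most 2.08. Defb22, known for coating sperm, read 9.43 on KO 4 and at most 1.97 elsewhere. Counted over 6 whole families, a step chosen after the values were seen, the genes raised on KO 4 were 20 of 42 Defb, 9 of 18 Wfdc, 3 of 12 Pate, 2 of 10 Lcn, 1 of 6 Serpina1 and 0 of 7 Svs genes. On the other arrays the only Defb and Wfdc genes raised were Defb19 and Wfdc10, both on WT 2.

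Of all genes, 261 read at least 1 log2 unit higher on KO 4 than on any other array, against 58 on WT 1, 15 on WT 2 and 5 to 16 on each of the others. The 10 named genes outside the members with the largest excess on KO 4 were Defb23 (8.93 above the next array), Defb26 (8.48), Defb38 (8.32), Wfdc13 (7.68), Defb22 (7.46), Defb28 (7.04), Defb39 (7.04), Spint5 (6.96), Wfdc15b (6.95) and the serpin Serpina16 (6.92). Of these 10, 9 belong to the beta-defensin, Wfdc or Spint families.

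Markers of epithelium moved with the epididymal genes on KO 4. Of 10 epithelial genes, 8 were raised on KO 4 and none on another array. The mean log2 signal of the list was 3.41, 4.01, 4.70, 5.86 and 4.53 in KO 1 to KO 5, and 3.78, 3.73 and 4.41 in WT 1 to WT 3. The cell adhesion gene Epcam read 3.06, 4.49, 5.82, 6.71 and 5.75 in KO 1 to KO 5, and 4.12, 3.95 and 5.16 in WT 1 to WT 3. KO 3, KO 5 and WT 3 were the next highest after KO 4, and of these 3 arrays Adam7 was raised on KO 3 and KO 5. Of 7 genes of mesothelium, the lining of the fat pad, none was raised on KO 4, 2 were on WT 1 and 1 was on WT 2. These were Muc16 and Prg4 on WT 1 and Prg4 on WT 2, and the other genes of the list were raised on no array. Both genes read higher on every WT array, WT 3 included, than on any KO array. Prg4 read 7.84, 7.74 and 7.30 in WT 1 to WT 3 and 6.15 to 6.55 in KO. The part of epithelial cells in the raised members was not tested.

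**Figure D2:**
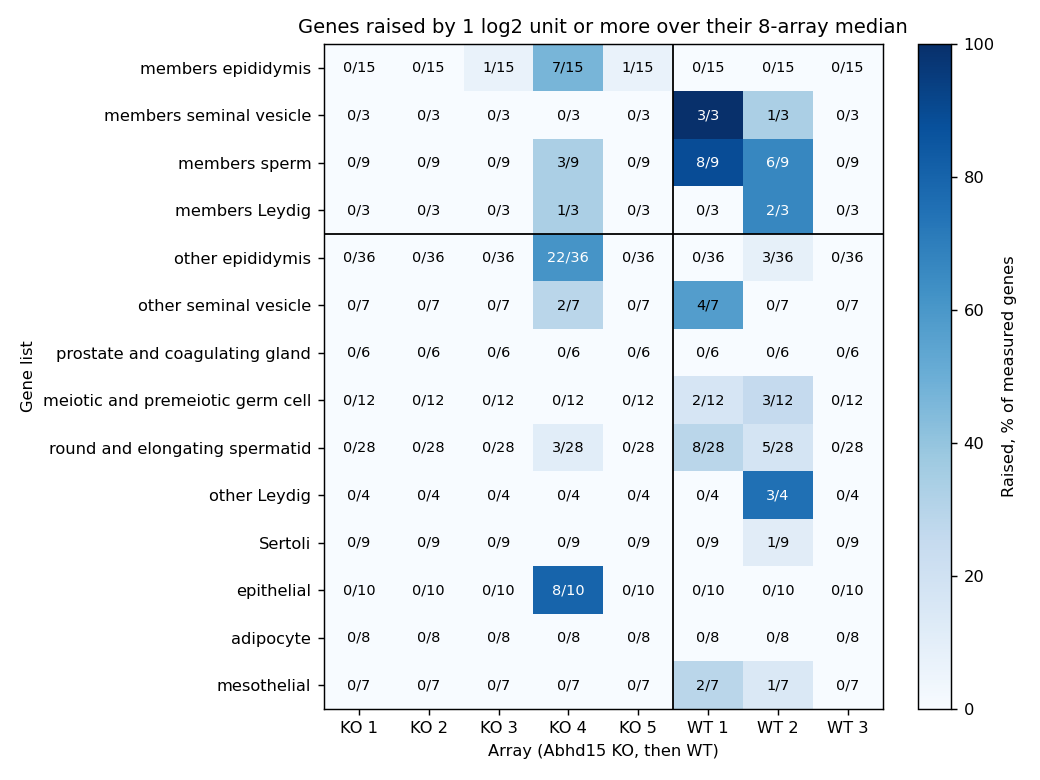
Number of genes raised by 1 log2 unit or more over their median of 8 arrays, out of those measured, for each gene list (rows) and array (columns, KO then WT), shaded by the share raised. The 4 groups of members stand above the line and the other lists below it. KO 4 carries 7 of 15 epididymal members and 22 of 36 other epididymal genes, WT 1 all 3 seminal vesicle members, and WT 2 2 of 3 Leydig members.

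The 3 seminal vesicle members were raised on WT 1. Svs2, the main clotting protein of the copulatory plug, read 1.62, 1.80, 1.68, 2.03 and 1.69 in KO 1 to KO 5, and 6.38, 1.70 and 1.68 in WT 1 to WT 3. Svs4, a small secretory protein of the same gene cluster, read 1.92, 1.84, 1.68, 2.06 and 1.98 in KO 1 to KO 5, and 6.45, 1.74 and 1.89 in WT 1 to WT 3. Both were high on WT 1 alone, and every other array was near background. Svs5, also of that cluster, read 1.94, 1.71, 1.72, 2.58 and 2.37 in KO 1 to KO 5, and 7.42, 4.51 and 2.42 in WT 1 to WT 3. It was the only one raised on WT 2 too, and WT 3 lay within the KO range.

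Of 7 other seminal vesicle genes, 4 were raised on WT 1, 2 on KO 4 and none elsewhere. Svs6 read 5.21 on WT 1 and at most 1.86 elsewhere, and Svs1 read 5.06 against at most 2.02. Ceacam10, an adhesion-family gene, read 8.38 on KO 4 and 4.86 on WT 1, and at most 2.37 on the other arrays. Spinkl, the gene of a Kazal-type inhibitor, was raised on KO 4 (3.82) and read 1.72 on WT 1. The list thus split between the 2 arrays, with Ceacam10 shared. None of 6 genes of the prostate and coagulating gland was raised on any array.

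The seminal vesicle members and the epididymal member Spint4 lie in 1 stretch of chromosome 2, and the genes of that stretch divided by array. In the order of the RefSeq annotation, it holds 32 protein-coding genes from Wfdc12 to Dnttip1, of which 31 were measured. On KO 4, 13 were raised, on WT 1 4 and on WT 2 3, and no gene was raised on both KO 4 and WT 1. The WT 1 genes were the consecutive Svs group, namely Svs2, Svs4, Svs6 and Svs5, apart from Svs3b and Svs3a, which stand between them and were not raised. Svs3b read 4.22 on WT 1 and at most 3.60 elsewhere. The KO 4 genes were Wfdc15b, next to Svs2, and 12 consecutive genes from Spint3 to Spint5. None of the measured genes between these groups, from Slpi to Wfdc2, was raised on any array.

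**Figure D3:**
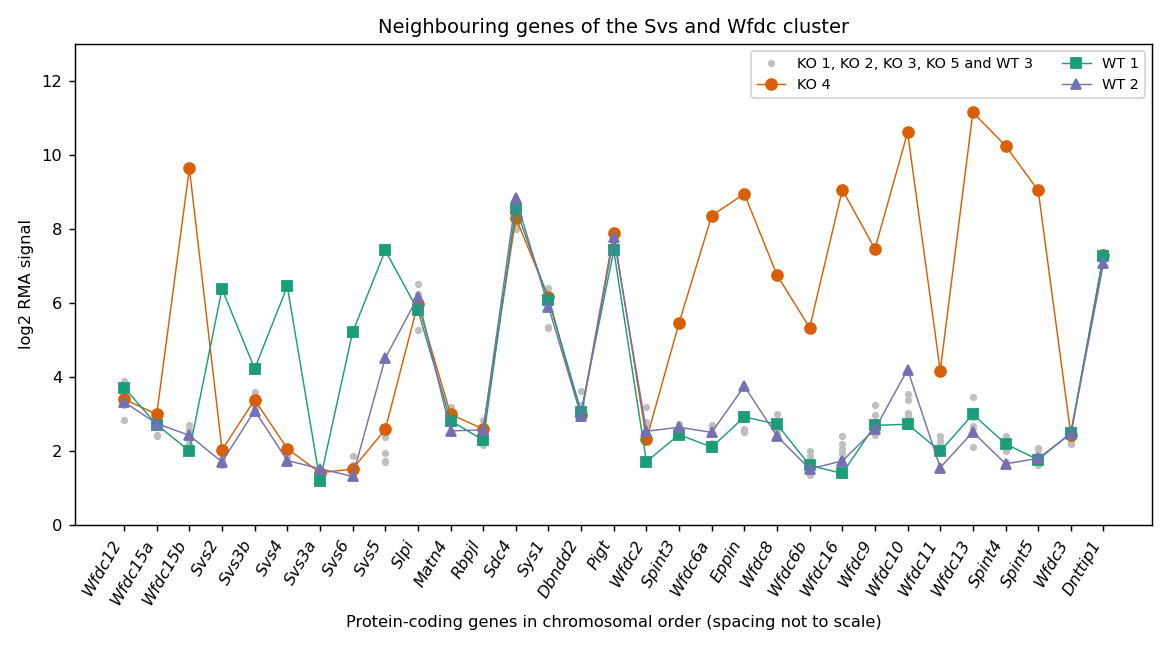
Log2 RMA signal of the 31 measured protein-coding genes of the chromosome 2 stretch, in chromosomal order with even spacing, on KO 4 (circles), WT 1 (squares), WT 2 (triangles) and the other 5 arrays (grey points). The Svs genes are high on WT 1 and the run from Spint3 to Spint5 on KO 4, where Wfdc13 reaches 11.15.

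Sperm genes were raised on WT 1, WT 2 and KO 4 together. Of 9 measured, 8 were raised on WT 1, 6 on WT 2 and 3 on KO 4, and all 8 had their highest value on WT 1. The transition protein gene Tnp2 read 2.34, 2.31, 2.96, 4.47 and 2.31 in KO 1 to KO 5, and 6.86, 5.53 and 2.10 in WT 1 to WT 3. Its partner Tnp1 read 2.86, 2.87, 2.99, 3.84 and 2.64 in KO 1 to KO 5, and 6.91, 4.88 and 2.66 in WT 1 to WT 3. Prm1, a protamine, read 2.73, 2.95, 3.60, 4.20 and 2.83 in KO 1 to KO 5, and 6.48, 4.11 and 2.90 in WT 1 to WT 3. In each case WT 1 was highest and WT 2 was raised or close to it, while WT 3 lay within the KO range for Tnp1 and Prm1 and below it for Tnp2. Prm1 missed the mark for a raised gene narrowly on KO 4 and WT 2, at 0.93 and 0.84 above its median.

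Smcp, a protein of the capsule around sperm mitochondria, behaved differently on KO 4. It read 2.09, 2.13, 2.37, 5.94 and 2.13 in KO 1 to KO 5, and 6.07, 5.07 and 1.65 in WT 1 to WT 3. KO 4 therefore came within 0.13 of WT 1 and above WT 2. Gapdhs, the sperm form of the glycolytic enzyme glyceraldehyde-3-phosphate dehydrogenase, read 3.69, 3.75, 3.95, 5.08 and 3.01 in KO 1 to KO 5, and 5.82, 4.99 and 2.68 in WT 1 to WT 3. Akap4, a scaffold of the fibrous sheath of the sperm tail, read 2.47, 2.60, 3.00, 3.11 and 2.34 in KO 1 to KO 5, and 4.48, 3.63 and 2.02 in WT 1 to WT 3. Gapdhs was raised on all 3 arrays. Akap4 was raised on WT 1 alone, but missed the mark narrowly on WT 2, at 0.83 above its median.

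The other 2 sperm forms of glycolytic enzymes were raised on both WT arrays and not on KO 4. Ldhc, lactate dehydrogenase C, read 1.93, 2.13, 2.13, 2.23 and 2.20 in KO 1 to KO 5, and 3.90, 3.38 and 1.82 in WT 1 to WT 3. Pgk2, phosphoglycerate kinase 2, read 1.74, 1.59, 1.72, 2.44 and 1.67 in KO 1 to KO 5, and 3.55, 3.36 and 1.52 in WT 1 to WT 3. Both are first transcribed in meiotic cells, before the protamines.

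Odf1, an outer dense fibre protein of the sperm tail, was the only member at a high level on every array, and its 2 probe sets disagreed. The brighter, kept by the rule, read 10.57 to 10.94 in KO and 10.45 to 10.77 in WT. The dimmer one read 3.18, 2.81, 2.84, 5.11 and 2.20 in KO 1 to KO 5, and 4.87, 4.21 and 2.51 in WT 1 to WT 3. The dimmer probe set was thus highest on the same 3 arrays as the other sperm genes. Which of them reports Odf1 was not tested. The probe set shared by Prm2 and Wdr19, which cannot be assigned to either gene, read 3.96, 6.35, 6.71, 9.12 and 4.92 in KO 1 to KO 5, and 9.76, 8.67 and 4.16 in WT 1 to WT 3. It too was highest on WT 1, KO 4 and WT 2.

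The 3 arrays carried germ cell genes in different proportions. On the log2 scale, the difference KO 4 minus WT 1 was -3.08 for Tnp1, -2.39 for Tnp2 and -2.28 for Prm1, but -0.74 for Gapdhs and -0.13 for Smcp. Between the 2 WT arrays, WT 1 minus WT 2 was 2.37 for Prm1, 2.03 for Tnp1 and 1.33 for Tnp2, but 0.52 for Ldhc and 0.19 for Pgk2. Among the 8 sperm members other than Odf1, the excess of WT 1 over WT 2 was largest for these 3 genes of nuclear condensation and smallest for Pgk2 and Ldhc. Other germ cell genes did not follow one order, with WT 1 minus WT 2 at -0.27 for Tcp11 and 0.76 for Oaz3, and no test was made. Differences of dim probe sets are compressed by RMA, so that small ones are less certain.

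Some genes of earlier germ cells were raised on WT 1 and WT 2. Of 12 meiotic and premeiotic genes measured, 2 were raised on WT 1 (Ddx4 and Mael), 3 on WT 2 (these and Sycp2) and none on any other array. Over all genes, 1.19% were raised on WT 1 and 0.654% on WT 2. The others of the list, among them Sycp1, Stra8, Dmc1 and Hormad1, were raised on no array. Of the 12 genes, 4 had their highest value on WT 1 (14.9% of all genes did) and 5 on WT 2 (9.79% of all genes). The list averaged 0.61 log2 units above the gene medians on WT 1 and 0.62 on WT 2, against -0.21 to 0.02 on the remaining arrays. Mael, which guards germ cells against transposons, read 2.22 on KO 4, 5.36 on WT 1, 4.84 on WT 2 and 1.36 to 3.02 on the others. The germ cell RNA helicase gene Ddx4 read 1.80 on KO 4, 3.52 on WT 1, 3.16 on WT 2 and 1.39 to 2.17 on the others. Of 28 other spermatid genes, 3 were raised on KO 4, 8 on WT 1 and 5 on WT 2, and none on the remaining arrays. Oaz3, the spermatid antizyme gene, was raised on all 3, at 4.73 on KO 4, 5.37 on WT 1 and 4.61 on WT 2.

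**Figure D4:**
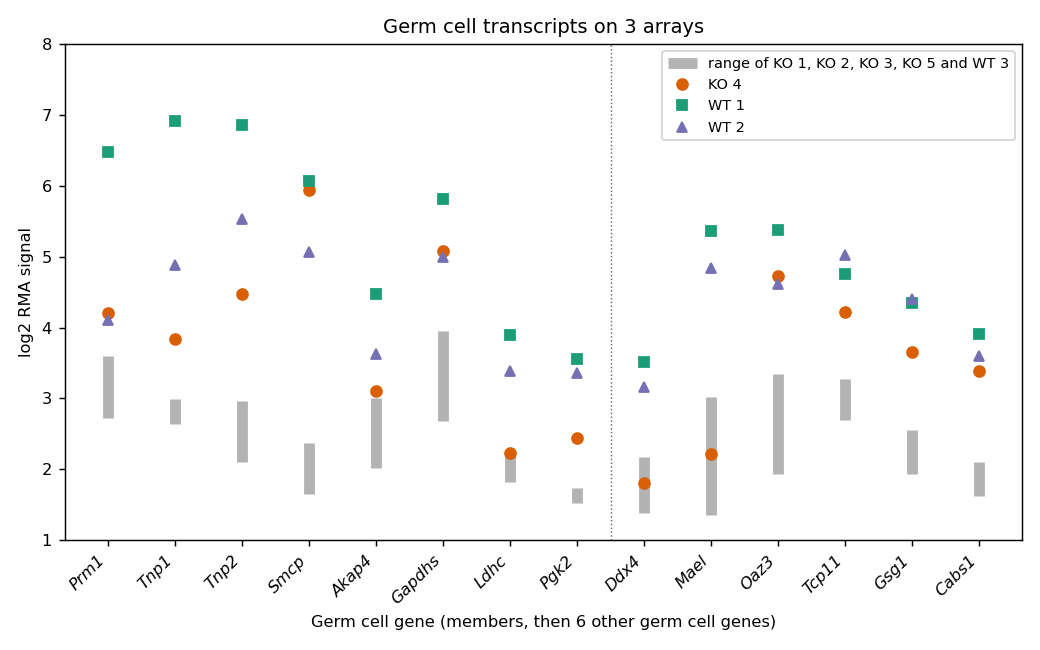
Log2 RMA signal of 8 sperm members (left of the dotted line; Odf1 not shown) and 6 other germ cell genes on KO 4 (circles), WT 1 (squares) and WT 2 (triangles); the grey bars span the other 5 arrays. On KO 4, Smcp (5.94) is close to WT 1 (6.07), while Tnp1 is at 3.84 against 6.91 and Mael lies within the grey bar.

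The Leydig cell members did not move as a set. Hsd17b3, the enzyme of the last step to testosterone, read 1.68, 1.96, 2.07, 1.92 and 1.86 in KO 1 to KO 5, and 2.35, 4.94 and 1.67 in WT 1 to WT 3, and was raised on WT 2 alone. Cyp17a1, which makes androgen precursors from progestagens, read 2.35, 3.12, 2.48, 7.96 and 2.12 in KO 1 to KO 5, and 3.11, 4.83 and 2.93 in WT 1 to WT 3. It was raised on KO 4 and WT 2, and was highest on KO 4, where Hsd17b3 was not raised. Star, which brings cholesterol into mitochondria, was raised on no array, reading 2.72, 3.66, 3.84, 3.83 and 3.42 in KO 1 to KO 5, and 4.21, 4.13 and 3.90 in WT 1 to WT 3.

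Of 4 other Leydig cell genes measured, 3 were raised on WT 2 and none on another array. Hsd3b6 read 5.22 on WT 2 and at most 2.32 elsewhere. Cyp11a1, which makes the first cut of cholesterol, read 4.74 against at most 2.62, and Hsd3b1 read 3.82 against at most 2.21. On KO 4, where Cyp17a1 was highest, these 3 read 1.74, 2.13 and 1.35. The probe set shared by Insl3, a Leydig cell hormone, and Jak3 read 5.43 to 5.95 in KO and 5.54 to 6.20 in WT, highest on WT 2. Of 9 Sertoli cell genes, Tsx was raised on WT 2 (4.41) and none was raised elsewhere.

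The genes most particular to WT 2 and WT 1 differed. On WT 2 the 10 with the largest excess over the next array were Defb19 (3.35), the testis histone gene H2ac1 (3.33), Hsd3b6 (2.91), Cyp11a1 (2.12), Serpina5 (1.96), the anti-Müllerian hormone receptor gene Amhr2 (1.64), Hsd3b1 (1.61), Cst12 (1.31), the kallikrein Klk1b24 (1.17) and Cst9 (1.16). On WT 1 they were the cytochrome P450 gene Cyp2b10 (3.57), Svs6 (3.35), Svs1 (3.04), the nuclear receptor gene Nr4a3 (2.31), the seminal vesicle antigen Sva (2.21), the lectin gene Clec4d (2.18), the peroxisomal enzyme gene Ehhadh (2.10), Hmgb4 (1.83), the spermatid gene Spem1 (1.78) and Chil3 (1.76). On WT 1 these include 3 genes of the seminal vesicle list and 1 of the spermatid list, beside genes of other kinds such as Cyp2b10, Nr4a3 and Ehhadh.

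Between the genotypes, no member passed the threshold of 0.05 after adjustment over all 22180 genes in limma, and nor did any other gene (0.00% of genes; smallest adjusted p of a member 0.478, of any gene 0.126). At an unadjusted p under 0.05, limma gave 5 of the 30 members, all lower in KO, against 4.56% of all genes lower in KO and 8.44% in both directions. No member was higher in KO at that p, against 3.88% of all genes. The 5 were Svs5, Tnp1, Ldhc, Pgk2 and Star. The groups did not overlap for 2 of the 30 members (Lcn5 and Star), against 6.57% of all genes, a share near the background. In the other lists, no gene passed the adjusted threshold either. At an unadjusted p under 0.05, 1 of 36 other epididymal genes was higher in KO and none lower, and 5 of 28 spermatid genes and 1 of 12 meiotic and premeiotic genes were lower in KO and none higher. In these lists the median log2 fold changes were 0.81, -0.36 and -0.23, against 0.01 over all genes. The other epididymal list averaged 3.41 above the gene medians on KO 4, and -0.01 to 0.07 on the remaining KO arrays. In WT 1 to WT 3 the spermatid list averaged 0.83, 0.50 and -0.16. The meiotic and premeiotic list averaged 0.61, 0.62 and -0.21 there. The arrays of a genotype thus did not share these shifts.

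The fold changes of many raised members moved with single arrays, as the plot of fold changes with and without KO 4, WT 1 and WT 2 shows. Adam7, raised on 3 KO arrays, kept a log2 fold change of 1.31 without KO 4 and 1.17 without all 3 of those arrays, against 2.75 with all arrays. Svs5 averaged 2.06 ± 0.393 in KO (log2, SD, n = 5) and 4.78 ± 2.51 in WT (SD, n = 3). Its log2 fold change was -2.72 with an SE of 0.848 (limma, adjusted p = 0.478). Its exact two-sided permutation p was 0.0357, where 56 splits of 5 and 3 arrays allow no p below 0.0179, and it is not adjusted for the 30 members. Spink8 averaged 4.07 ± 4.29 in KO (SD, n = 5) and 1.62 ± 0.0863 in WT (SD, n = 3). The difference of 2.44 on the log2 scale had an SE of 1.98 (limma, adjusted p = 0.766), and without KO 4 it was 0.53 with an SE of 0.253. Tnp1 averaged 3.04 ± 0.463 in KO (SD, n = 5) and 4.82 ± 2.13 in WT (SD, n = 3), and its log2 fold change was -1.78 with an SE of 0.736 (limma, adjusted p = 0.568). Without WT 1, WT 2 and KO 4, which leaves 4 KO arrays and 1 WT array, the log2 fold change was 0.19 (SE 0.223) for Tnp1 and -0.48 (SE 0.297) for Svs5.

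Leaving out WT 3, the WT array with no raised member, had the largest effect on the count. Then 13 of the 30 members had an unadjusted p under 0.05 in limma, all lower in KO, against 7.98% of all genes. Ldhc (log2 fold change -1.52, adjusted p = 0.0222) and Pgk2 (-1.62, adjusted p = 0.0483) were among the 32 genes (0.144%) that passed. That fit sets the KO arrays against WT 1 and WT 2 alone, the WT arrays on which sperm genes were raised. Without WT 1 instead, 1 member (Svs5) had an unadjusted p under 0.05 in limma, against 5.88% of all genes, and without KO 4, 9 did, 8 lower in KO and Lcn5 higher, against 8.65% of all genes. Svs5 alone had such a p without KO 5 too, against 9.85% of all genes. Without KO 1, KO 2 or KO 3 in turn, 2 members had one each time (Svs5 and Star), against 7.94%, 6.89% and 8.37% of all genes. Without WT 2, 3 members did (Svs2, Svs4 and Svs5), against 6.78% of all genes. Of these 5 fits and that without WT 1, only the one without WT 2 gave a share of members above that of all genes.

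**Figure D5:**
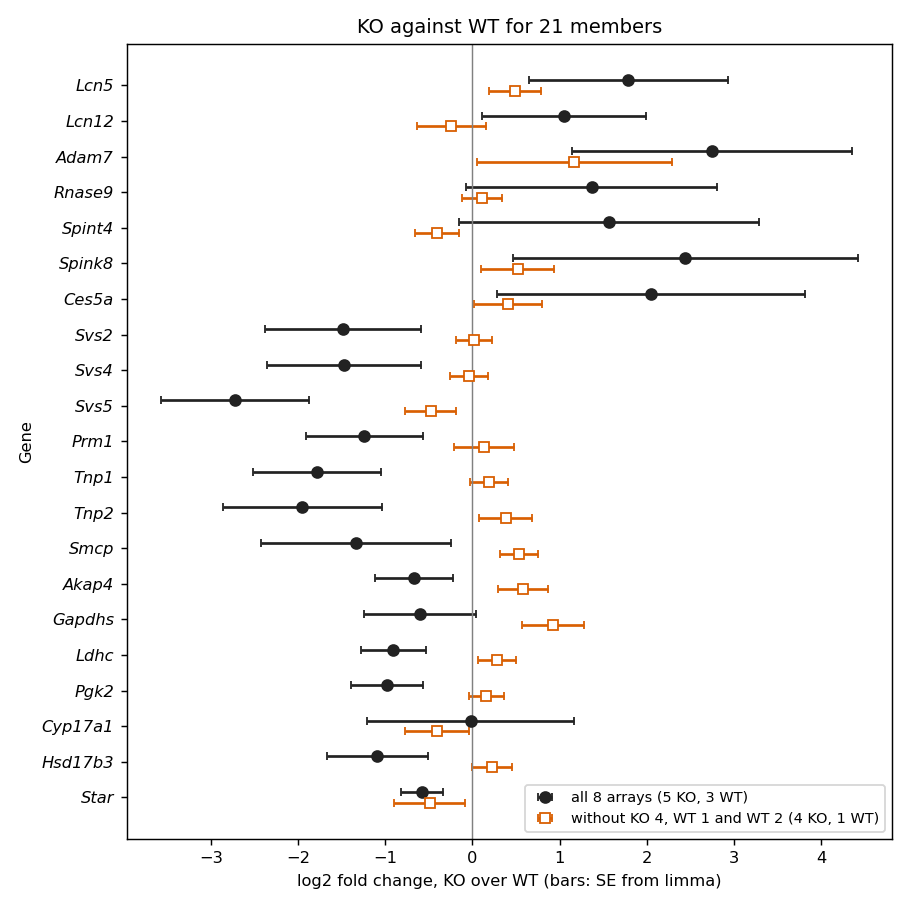
Log2 fold change of KO over WT (points) with its SE from limma (bars) for the 20 raised members and Star, with all 8 arrays (filled circles) and without KO 4, WT 1 and WT 2 (open squares, 4 KO arrays and 1 WT array). The epididymal members are above 0 and the seminal vesicle and sperm members below 0 with all arrays; without the 3 arrays Spink8 is at 0.52 and Tnp1 at 0.19.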

How the data were processed

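The authors deposited log2 values per probe set and array, 1 array per mouse. Per the submitters' processing notes the tools were RMA and oligo, while the series' design text names Expression Console. Which of them made the deposited log2 values is unsettled, and the sources used here give no version or build. RMA corrects background, normalizes across arrays and summarises probes, and it compresses differences of dim probe sets. RNA input was 200 ng per array. Values were used as deposited. Precision is limited by how few arrays there are.

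Of 41345 probe sets, 23521 had 1 symbol in the platform annotation, which can be old, 1814 had several and 16010 had none listed. Symbols were updated by Entrez identifier (23328 matched) from a RefSeq table of GRCm38.p6. Per gene the probe set with the highest mean was kept, giving 22180 genes. Group and replicate number came from the sample titles. The labels name individual mice, and no 2 arrays were identical.

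The genotypes were compared, KO over WT, with limma 3.58.1 (R 4.3.3; lmFit, eBayes), two-sided, with Benjamini-Hochberg adjustment over all genes and no filter on level, because 23 of the 30 members lay below the median of the gene means (3.61). The limma step was checked on simulated data with known changes. Single members were also compared by an exact permutation test. Figures were drawn with matplotlib 3.10.9.

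A gene was raised on an array at 1 log2 unit or more above its median over 8 arrays. Named outside the members are the 10 genes with the largest excess on arrays with 3 or more raised members, and up to 4 genes per list; clones and predicted genes were not named. Epcam, Ceacam10, Spinkl, Oaz3, Tcp11, Svs3b, Tsx, Muc16 and Prg4, and examples beyond 4 in a list, were named after their values were seen. The members, lists and alternatives were chosen with earlier results of these data known.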

Additional observations from a re-analysis of the deposited data

Results flagged for a closer look

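Among the 5 KO arrays, a single array lay far from the other 4 for 12 of the 30 members, 11 of them through KO 4 at the high end, by the gap to the nearest value relative to the whole range (Dixon's criterion). The criterion picks about 1 in 20 groups by chance if values are normally distributed. It was applied to the members only, so no share over all genes stands beside the count. Most of the picked members share the array KO 4 and are not independent, so the count cannot be read against that rate. On KO 4 the members picked were the epididymal genes Spink8 (11.69), Ces5a (10.75), Spint4 (10.25), Rnase9 (8.60), Lcn5 (8.56), Lcn12 (7.44) and Ovch2 (2.48), the sperm genes Smcp (5.94), Tnp1 (3.84) and Pgk2 (2.44) and the steroid enzyme gene Cyp17a1 (7.96), all as log2 signals. Of these, Ovch2, Tnp1 and Pgk2 were not raised by 1 log2 unit on KO 4. The exception was Gpx5, which stood apart on KO 2 (2.16) within a range of 0.46 over all 8 arrays. Groups of 3 are not tested, so WT 1 and WT 2 could not be picked in this way.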

How the results depend on the processing

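After subtraction of the group means, arrays sharing a number from 1 to 3 correlated at 0.0884, 0.0604 and 0.131. No correlation was computed for arrays of unlike numbers, so whether the numbers pair the arrays is not settled. With the replicate number as a block, 1 gene passed the adjusted threshold. In that fit 7 members had an unadjusted p under 0.05 (11.8% of all genes did, against 8.44% without the block). The log2 fold changes of Rnase9 (-0.03) and Spint4 (-0.15) turned. Numbers 4 and 5 occur in KO only, so KO 4 and KO 5 did not enter the fold changes of the block fit. With a trended, robust prior 2 genes passed. Leaving out each array in turn gave 0 to 32 genes past the threshold and 1 to 13 members at an unadjusted p under 0.05. Over those fits the log2 fold change ran from -1.11 to 0.59 for Cyp17a1, -1.51 to 0.06 for Gapdhs, -0.01 to 1.76 for Rnase9, -0.08 to 2.05 for Spint4, and -2.28 to 0.08 for both Svs2 and Svs4. With the level filter, which keeps 7 members, 2 members had an unadjusted p under 0.05 (10.5% of the genes kept). With arrays centred on their medians Cyp17a1 was at 0.02, and KO 1 had 1 raised member. Without WT 1 and KO 4, 3 members had an unadjusted p under 0.05 (5.96% of all genes), and Rnase9 (-0.02), Spint4 (-0.03), Svs2 (0.01) and Svs4 (0.04) turned. Without WT 1, WT 2 and KO 4, 2 members did (Smcp and Gapdhs, higher in KO; 3.53% of all genes), and the fold changes that turned were those of Lcn12 (-0.24), Spint4 (-0.41), Svs2 (0.02), Prm1 (0.13), Tnp1 (0.19), Tnp2 (0.38), Smcp (0.53), Akap4 (0.58), Gapdhs (0.92), Ldhc (0.28), Pgk2 (0.16) and Hsd17b3 (0.22). In that fit the lone WT array is assumed to vary like the KO arrays. In all, 29 of 321 fold change values turned. At 0.5 log2 units 2 members were raised on KO 1, 2 on KO 3 and 3 on KO 5, and at 2 log2 units 0 on KO 5, 7 on WT 1 and 4 on WT 2. Against the median over the other 7 arrays, 12 members were raised on KO 4 and 11 on WT 2. The counts on KO 4 stayed within 1.5 times of 11 at every setting tried. Apart from the turn in a block or a left-out array, which follows from which arrays enter, causes were not tested. Signals near background limit what can be said of the 8 unraised epididymal members.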
